A study of Mus musculus with 12 samples.

Results

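The liver X receptors, their partner RXR-alpha and a set of cholesterol efflux genes that they are known to control were followed in mouse melanoma cells depleted of Elp3. The 9 genes were taken by symbol from the table of counts per gene, and all 9 of them were found among its 24421 genes. They are the receptors Nr1h2, Nr1h3 and Rxra, the transporters Abca1 and Abcg1, the lipid carriers Apoe and Pltp, the phospholipid enzyme Lpcat3 and the ubiquitin ligase Mylip. The cells were B16, a pigmented mouse melanoma line grown in medium with fetal bovine serum, and all of them had been transduced with a lentivirus. The control group, shControl, carried a non-relevant shRNA, and the other group, shElp3, carried a single shRNA against Elp3, the catalytic subunit of the Elongator complex, which modifies wobble uridines of certain tRNAs. Each group had 3 cultures lettered A, B and C, and each culture gave a total RNA library and a library of ribosome-protected fragments (RPF, or footprints), so that 12 libraries from 6 cultures were read. No second shRNA against Elp3 and no second cell line entered the comparison, and the labels do not say whether the letters mark separate transductions. The p-values therefore reflect how these cultures spread, which may be technical.

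Liver X receptors are nuclear receptors that bind DNA as a pair with RXR and are switched on by oxysterols and by desmosterol, an intermediate of cholesterol synthesis. When sterols are abundant they turn on genes that move cholesterol out of the cell and onto lipoprotein particles, and they turn on Mylip, whose product marks lipoprotein receptors for degradation. SREBP2 works in the opposite sterol state, turning on cholesterol synthesis and uptake when sterols in the endoplasmic reticulum are low. In macrophages and liver these opposing programmes are the classical account of cholesterol balance, and cultured tumour cells run both to varying degrees.

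Total counts per library ran from 7914369 to 16527864 in RNA and from 7619269 to 10998570 in footprints. In RNA, the libraries lettered A stood apart, with Spearman correlations across genes of 0.876 and 0.866 between shControl A and its fellow controls against 0.992 between B and C, and values of 0.926 and 0.934 against 0.985 in shElp3. Footprint library A of shControl also stood apart, at 0.941 and 0.947 against 0.992. Elp3 itself fell in footprints, from 105 ± 11.4 to 55.0 ± 5.86 CPM (counts scaled to a common library size with TMM factors, mean ± SD, n = 3), a log2 fold change of -0.93 (adjusted p = 0.0249, edgeR quasi-likelihood test with Benjamini-Hochberg adjustment, threshold 0.05). Its RNA measured 78.7 ± 13.3 CPM in shControl and 37.3 ± 3.42 CPM in shElp3, with no overlap, a log2 fold change of -1.08 that did not pass the test (adjusted p = 0.0831, edgeR) but did so with the replicate block (-1.07, adjusted p = 0.000977, edgeR). All 7 melanocyte markers were detected, summing to 8821 to 11767 CPM in control RNA and 5865 to 7399 CPM in shElp3 RNA, with no overlap, and to 14539 to 33940 and 11375 to 20252 CPM in footprints, where the groups overlapped. Of these Pmel, a melanosome protein, fell in RNA (log2 -1.59, adjusted p = 0.0396, edgeR) and in footprints (log2 -1.81, adjusted p = 0.0364, edgeR). With the replicate block Mitf also fell in RNA (log2 -1.15, adjusted p = 0.00168) and in footprints (log2 -0.95, adjusted p = 0.0373, edgeR). Dct then fell in footprints (log2 -1.08, adjusted p = 0.0239, edgeR). Over all genes the block called 829 of 12274 lower in RNA and 444 of 11343 lower in footprints. Among 12 markers of macrophages and other leukocytes, Cd68 and Lyz2 had enough counts for a test, and Ptprc, Adgre1, C1qa, C1qb and C1qc had no count in any RNA library. Their summed RNA level was 7.79 to 22.4 CPM in shControl and 6.23 to 11.9 CPM in shElp3, and their summed footprint level 24.1 to 77.2 and 13.8 to 32.8 CPM. Of 8 fibroblast markers 4 passed, with a summed level of 41.5 to 71.9 CPM in shControl and 72.6 to 122 CPM in shElp3 RNA, and of 104 to 111 and 126 to 175 CPM in footprints. Col1a1, a collagen chain, rose in footprints from 5.79 ± 0.69 to 16.2 ± 2.83 CPM (log2 1.48, adjusted p = 0.0203, edgeR). Dcn was at 0 in every RNA library, and Col3a1, Dcn and Lum were at 0 in every footprint library. Col1a2, Col3a1, Dcn and Lum were below the filter, at most 0.553 CPM in RNA and 0.298 CPM in footprints. Nearly all of the fibroblast sum thus came from the 4 markers that passed. The sum was higher in shElp3 without overlap, in the direction of Abca1 and Pltp below. Its part in those results was not tested. None of 6 adipocyte and hepatocyte markers passed. In such bulk libraries fewer cells of a kind and less RNA per cell cannot be told apart.

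To show the letters in front of the members whose values did not overlap and were higher in shElp3 in both kinds of library, of which Abca1 alone passed the test, the bases upstream of their start sites are printed, from RefSeq promoter windows on GRCm38.p6 (the assembly of mm10). Of the 250 bases upstream of the Abca1 start site, the 157 that lie outside the RefSeq span of the gene are given, chr4:53159989-53160145, minus strand. Pltp is given with the last 120 bases at chr2:164857709-164857828, minus strand, and Mylip with the last 120 bases at chr13:45389622-45389741, plus strand. The 250 bases were searched on both strands for a direct repeat of 2 copies of AGGTCA with 4 bases between them, the kind of element that LXR and RXR bind (at most 3 mismatches in the 12 fixed bases), and for the E-box CACGTG, which does not overlap it here. Capitals mark an E-box, and no other match falls in the bases printed.
Abca1: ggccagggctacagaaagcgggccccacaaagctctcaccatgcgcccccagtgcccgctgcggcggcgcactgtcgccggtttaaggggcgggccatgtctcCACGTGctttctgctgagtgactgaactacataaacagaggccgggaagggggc
Pltp: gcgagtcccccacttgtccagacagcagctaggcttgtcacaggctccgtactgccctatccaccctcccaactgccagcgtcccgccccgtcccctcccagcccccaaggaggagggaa
Mylip: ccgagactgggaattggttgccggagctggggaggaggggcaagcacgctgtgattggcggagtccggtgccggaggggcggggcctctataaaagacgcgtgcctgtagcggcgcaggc
The Abca1 window held a repeat match on the opposite strand from position -67 to -52, reading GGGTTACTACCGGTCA with 3 mismatches and lying inside the gene's span, and an E-box from -147 to -142, counted from the start site. No repeat match and no E-box was found in the 250 bases upstream of Pltp and Mylip. Among the other members Rxra had a repeat match in its second window, from -58 to -43 reading GTGGCAGGAAAGGTCA with 3 mismatches. The first window of Rxra and all windows of Nr1h2, Nr1h3, Apoe and Lpcat3 held neither. Of 32851 windows of this length, 18.5% held such a repeat match and 6.02% held the E-box, so a match of this kind is common. By itself it does not tell whether the receptors bind there, and bases outside the 250 were not searched. RefSeq windows were matched for 8 of the 9 members, the one without being Abcg1.

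Of the 9 members, 8 passed the filter on low counts in RNA and 7 in footprints, Abcg1 passing in neither. In RNA no member was called by the edgeR test, against 1.14% of 12274 genes called in either direction, 0.22% higher and 0.921% lower. At an unadjusted p under 0.05 there were Abca1 and Pltp, against 12.4% of all genes, besides Nr1h3, which entered only through the group where it is high and is left out of the counts here. DESeq2 called Abca1 and Pltp, against 1.88% of all genes called higher by that tool. With the replicate block, which compares cultures of the same letter, Abca1 and Pltp rose, against 5.46% of all genes called higher and 6.75% lower, and letters B and C alone also called these 2, against 8.88% higher. In footprints Abca1 rose and the other 6 tested members were not called, against 1.77% of 11343 genes called higher, 3.06% lower and 4.83% in either direction. DESeq2 called Abca1 and Pltp there, against 4.65% of all genes called higher. The groups did not overlap for Abca1, Pltp and Mylip, all higher in shElp3 RNA, against 10.2% of all genes, and for Rxra, lower, against 9.56%. In footprints the groups did not overlap for Abca1, Pltp and Mylip, all higher, against 15.4% of all genes, and for Rxra, lower, against 15.3%. An exact permutation test of 3 cultures against 3 cannot give a p below 0.1.

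**Figure D1:**
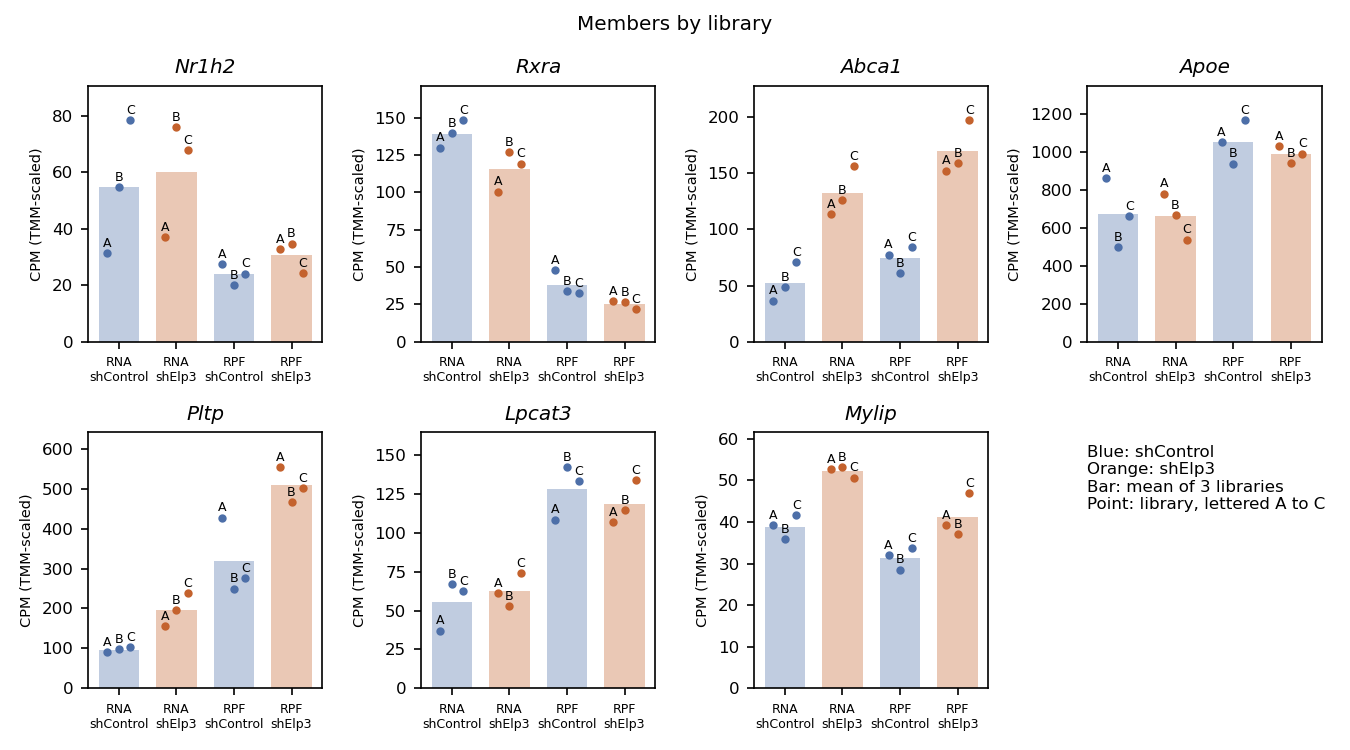
Each panel is 1 gene and plots CPM (TMM-scaled, linear axis from 0) in RNA and RPF libraries of shControl (blue) and shElp3 (orange); bars are means of 3 libraries and lettered points are the libraries. Abca1 and Pltp sit higher in every shElp3 library than in any shControl library of the same kind, Rxra sits lower, and Apoe and Lpcat3 overlap.

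Nr1h2 encodes LXR-beta, the liver X receptor found in most tissues, and lies at chr7:44549616-44553968. Its RNA stood at 31.5, 54.9 and 78.5 CPM in shControl A, B and C and at 37.1, 75.9 and 67.9 CPM in shElp3. The groups overlapped almost fully, and in each group library A held the lowest value, so that the spread between letters was larger than the difference between groups. The log2 fold change was 0.13 (95% interval -0.81 to 1.07, adjusted p = 0.952, edgeR). Its footprints measured 27.5, 20.2 and 24.1 CPM in shControl and 32.8, 34.8 and 24.2 CPM in shElp3, where A and B were above all controls and C was level with a control. The footprint log2 fold change was 0.36 (95% interval -0.09 to 0.81, adjusted p = 0.317, edgeR).

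Nr1h3 encodes LXR-alpha, the receptor enriched in liver, fat and macrophages, and lies at chr2:91184061-91202829. It was barely detected. Its RNA counts were 13, 2 and 3 in shControl and 20, 13 and 19 in shElp3, or 0.48 ± 0.43 and 1.41 ± 0.19 CPM. The shElp3 libraries were all above the controls, but shControl A came close to shElp3 A, at 0.97 against 1.20 CPM. The log2 fold change of 1.49 had a wide interval, 0.12 to 2.86, and did not pass (adjusted p = 0.352, edgeR). Without shControl A the log2 fold change was 2.55. Nr1h3 met the count filter only through its shElp3 libraries, so a difference was built into its entry and its value is given as a description. Footprint counts were 0, 2 and 0 in shControl and 1, 3 and 6 in shElp3, too few for a test. A count of 0 allows up to 3 counts, a limit for counting error only. On raw library totals, without TMM factors, this is 0.273 to 0.394 CPM over the footprint libraries.

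Rxra encodes RXR-alpha, the shared partner of liver X receptors and of several other nuclear receptors, and lies at chr2:27676445-27763319. Its RNA stood at 130, 140 and 148 CPM in shControl and at 101, 127 and 119 CPM in shElp3. Every shElp3 library was lower than every control, by a small margin between shElp3 B and shControl A. The log2 fold change of -0.27 did not pass (95% interval -0.75 to 0.21, adjusted p = 0.696, edgeR). Rxra footprints measured 48.2, 34.2 and 32.4 CPM in shControl and 27.1, 26.8 and 21.9 CPM in shElp3. Here too the groups did not overlap, with shControl A well above the other controls. The footprint log2 fold change was -0.60 (SE 0.19, 95% interval -1.05 to -0.15, adjusted p = 0.121, edgeR), and -0.41 without shControl A (adjusted p = 0.0597, edgeR).

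Abca1, the transporter that loads cholesterol and phospholipid onto lipid-poor apolipoproteins, lies at chr4:53030789-53159988 and had the largest fitted increase of the 7 members tested in footprints. Its RNA stood at 36.7, 48.6 and 71.1 CPM in shControl A, B and C and at 113, 126 and 157 CPM in shElp3. In both groups A was lowest and C highest, and the lowest shElp3 library lay above the highest control. The RNA log2 fold change was 1.34 (SE 0.30, 95% interval 0.64 to 2.04, adjusted p = 0.103, edgeR). With the replicate block it was 1.38 (adjusted p = 0.000137, edgeR), with log2 ratios within letters of 1.63, 1.37 and 1.14 for A, B and C. Without shControl A it was 1.14 (adjusted p = 0.0488, edgeR).

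Abca1 footprints measured 77.6, 61.4 and 84.4 CPM in shControl and 152, 159 and 197 CPM in shElp3. The groups were again apart, and no single library stood far from its group. Footprints rose from 74.5 ± 11.8 to 169 ± 24.1 CPM (SD, n = 3), 2.27-fold, a log2 fold change of 1.19 (SE 0.17, 95% interval 0.79 to 1.59, adjusted p = 0.0197, edgeR). Within letters the log2 ratios were 0.97, 1.37 and 1.22. The call rested on all but 1 of the libraries. Removing shElp3 A gave 1.26 (adjusted p = 0.12), removing shElp3 B gave 1.23 (0.119) and removing shElp3 C gave 1.06 (0.0904), so the call ended each time. It also ended on removing shControl B (1.06, adjusted p = 0.0657) and shControl C (1.29, 0.0556), and it held without shControl A (1.20, adjusted p = 0.000694, all by edgeR).

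Abcg1, the transporter that passes cholesterol to high-density lipoprotein in macrophages, lies at chr17:31057694-31117984 and was near the limit of detection. Its RNA counts were 3, 0 and 0 in shControl and 1, 1 and 2 in shElp3. Footprints gave 1 count in shControl A and 0 in every other footprint library. All these counts lie at or under the limit of 3 per library, so no fold is given and a difference was not detectable at this depth. On raw library totals, without TMM factors, that limit is 0.182 to 0.379 CPM in RNA.

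Apoe, the apolipoprotein that carries cholesterol and binds lipoprotein receptors, lies at chr7:19696244-19701310. Its RNA measured 866, 498 and 662 CPM in shControl and 782, 667 and 540 CPM in shElp3, with A highest in each group. The groups overlapped, and the log2 fold change was -0.03 (95% interval -0.72 to 0.67, adjusted p = 0.988, edgeR). With upper quartile scaling it was 0.049, so no direction is given. Apoe footprints were 1053, 940 and 1169 CPM in shControl and 1031, 943 and 993 CPM in shElp3. All shElp3 values lay within the range of the controls. The footprint log2 fold change of -0.09 had the narrowest interval of the 7 members, -0.40 to 0.21 (adjusted p = 0.717, edgeR).

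Pltp, the phospholipid transfer protein that remodels high-density lipoprotein, lies at chr2:164839518-164857708. Its RNA stood at 89.8, 97.5 and 104 CPM in shControl and at 156, 196 and 238 CPM in shElp3. The controls lay close together, and even the lowest shElp3 library, A, was well above them. The log2 fold change was 1.02 (SE 0.23, 95% interval 0.47 to 1.57, adjusted p = 0.108, edgeR), and with the replicate block it was 1.00 (adjusted p = 0.00184, edgeR). DESeq2 called the RNA of Abca1 (1.32, adjusted p = 0.0032) and of Pltp (1.00, adjusted p = 0.00373).

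Pltp footprints measured 428, 250 and 276 CPM in shControl and 555, 467 and 502 CPM in shElp3. The groups did not overlap, but shControl A came within reach of shElp3 B. The log2 fold change was 0.68 (SE 0.21, 95% interval 0.19 to 1.17, adjusted p = 0.109, edgeR). Without shControl A it was 0.94 and passed (adjusted p = 0.000368, edgeR), and DESeq2 called it with all libraries (0.67, adjusted p = 0.0461). Letters B and C alone gave 0.88 (adjusted p = 0.000369, edgeR), against 9.41% of all genes called higher in that pair of letters.

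Lpcat3, which builds polyunsaturated chains into membrane phospholipids, lies at chr6:124663094-124704716. Its RNA measured 37.1, 67.0 and 62.7 CPM in shControl and 61.3, 52.8 and 74.2 CPM in shElp3. The groups overlapped, with shControl A alone well below the others, and the log2 fold change was 0.18 (95% interval -0.49 to 0.84, adjusted p = 0.893, edgeR). Lpcat3 footprints were 109, 143 and 133 CPM in shControl and 107, 115 and 134 CPM in shElp3, again overlapping. The footprint log2 fold change was -0.11 (95% interval -0.47 to 0.25, adjusted p = 0.713, edgeR).

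Mylip, the ubiquitin ligase also called IDOL, which sends lipoprotein receptors to degradation, lies at chr13:45389742-45411940. Its RNA stood at 39.2, 35.8 and 41.6 CPM in shControl and at 52.7, 53.2 and 50.6 CPM in shElp3. Both groups were tight and did not overlap. The log2 fold change was 0.42 (95% interval -0.03 to 0.88, adjusted p = 0.440, edgeR). Mylip footprints measured 32.1, 28.5 and 33.7 CPM in shControl and 39.3, 37.1 and 47.0 CPM in shElp3, also without overlap. The footprint log2 fold change was 0.39 (95% interval 0.04 to 0.74, adjusted p = 0.179, edgeR). In neither kind of library did any alternative setting call Mylip.

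**Figure D2:**
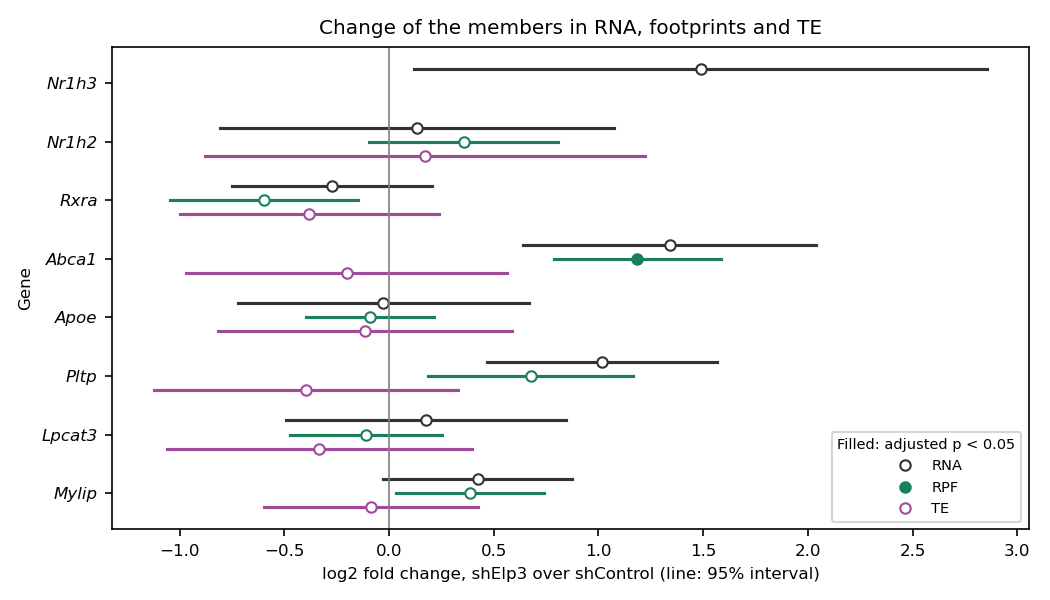
Points are log2 fold changes of shElp3 over shControl in RNA (black), RPF (green) and translational efficiency (TE, purple), lines are 95% intervals, and a filled point has an adjusted p under 0.05. Abca1 in RPF is the 1 filled point, at 1.19, and every TE interval drawn includes 0. Nr1h3 has an RNA point only, and it met the count filter only through its shElp3 libraries.

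Translational efficiency, the footprint level relative to the RNA level, was tested as an interaction in 1 edgeR model over all 12 libraries. The model had no term for culture, so it did not pair the RNA and footprints of a culture. None of the 7 members tested was called, nor was any of 11238 genes (0%). At an unadjusted p under 0.05 there were 62 genes (0.552%), but no member, and DESeq2 called none. With culture as a block, 0 genes were called as well (edgeR). For Abca1 the difference in footprint change and RNA change was -0.20 on the log2 scale (95% interval -0.97 to 0.57). For Pltp it was -0.40 (95% interval -1.12 to 0.33) and for Lpcat3 -0.33 (95% interval -1.06 to 0.40). Rxra gave -0.38 (95% interval -0.998 to 0.24). Nr1h2, with an estimate of 0.17, had the widest interval of the 7, -0.88 to 1.22. Apoe and Mylip gave -0.11 and -0.09. Without shControl A the estimates were -0.051 for Pltp, -0.12 for Rxra and -0.21 for Lpcat3. All these intervals include 0, and their width leaves room for changes in either direction.

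The members differed from each other in how many footprints they had for their RNA. The log2 ratio of footprint CPM to RNA CPM was computed per culture, and its mean over 3 cultures was ranked among 11238 genes. Rxra had a low ratio, -1.89 ± 0.40 in shControl and -2.19 ± 0.28 in shElp3 (SD, n = 3), at percentiles 5.90 and 3.36. Nr1h2 followed at -1.11 ± 0.80 and -0.93 ± 0.68, with culture A far above B and C in both groups, at -0.20 in shControl and -0.18 in shElp3. Mylip lay near the middle, at -0.31 ± 0.02 and -0.35 ± 0.22. Abca1 was at 0.56 ± 0.46 and 0.36 ± 0.05, and Apoe at 0.67 ± 0.34 and 0.59 ± 0.25. Lpcat3 was at 1.24 ± 0.26 and 0.93 ± 0.17. Pltp was the highest of the 7, at 1.67 ± 0.50 and 1.39 ± 0.40, percentiles 98.95 and 97.2. Pltp and Rxra did not overlap in any culture. Both receptors thus had fewer footprints per RNA count than the 5 other members in every culture but A, where Nr1h2 lay above Mylip in both groups. The RNA count covers whole transcripts where footprints lie mostly in coding sequence, so the ratio also moves with the untranslated share of a transcript, and CPM levels are not compared between genes because transcript lengths were not used here.

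**Figure D3:**
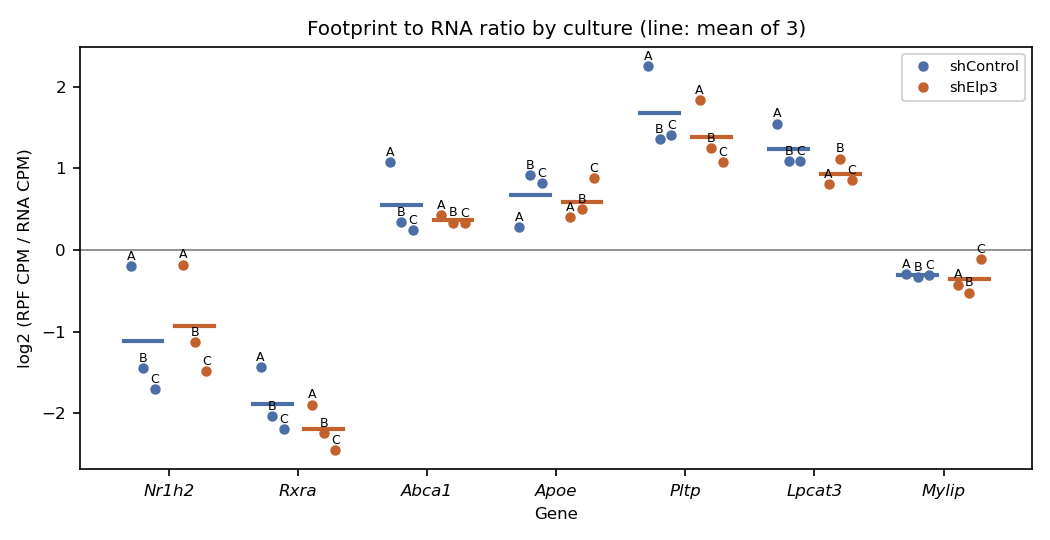
Each point is the log2 ratio of RPF CPM to RNA CPM in 1 culture (letters A to C; blue shControl, orange shElp3), and lines are means of 3 cultures. Rxra lies between -2.45 and -1.43 and Pltp between 1.08 and 2.25, and the groups overlap for each of the 7 genes.

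The rest of the pathway was read from gene lists. Among 12 RXR paralogs and other partners of RXR, 8 were tested and none was called in either kind of library by edgeR or DESeq2 (1 in RNA and 0 in footprints at an unadjusted p under 0.05), with medians of 0.15 in RNA and 0.04 in footprints. Among 15 coregulators of these receptors, such as the corepressor and coactivator subunits, all were tested and none was called by edgeR without the block or by DESeq2 (0 in RNA and 3 in footprints at an unadjusted p under 0.05), with medians of -0.15 and -0.15. With the replicate block 1 of them, the coactivator Ppargc1b, fell in RNA (log2 -1.002, adjusted p = 0.0338, edgeR). Of all genes, 12.4% were at an unadjusted p under 0.05 in RNA (edgeR). That share was not computed for footprints, where 4 of the 7 tested members were also under it. The footprint counts at this threshold therefore have no background to be read against. The medians over all tested genes were -0.02 in RNA and -0.01 in footprints. The members themselves had a median of 0.36 over 7 genes in footprints. Their RNA median of 0.30 over 8 genes includes Nr1h3, which passed the filter only through its higher group. It is therefore not set against the other medians.

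Of 18 other known targets of liver X receptors, 7 were tested in footprints, and 2 of them, both enzymes of fatty acid synthesis, fell. Fasn, fatty acid synthase, fell from 505 ± 30.1 to 249 ± 29.8 CPM (SD, n = 3; log2 -1.02, adjusted p = 0.0166, edgeR). Scd1, which desaturates stearate, fell from 132 ± 18.7 to 70.6 ± 4.77 CPM (log2 -0.90, adjusted p = 0.0254, edgeR). None of the 7 was called higher, and the median was -0.15. In RNA 8 were tested and none was called by edgeR (2 at an unadjusted p under 0.05, 1 by DESeq2), with a median of -0.45. With the replicate block Scd1 (log2 -0.90, adjusted p = 0.0045) and Fasn (log2 -0.68, adjusted p = 0.0336) fell in RNA too (edgeR). Srebf1, the lipogenic factor whose transcription liver X receptors drive, was singled out after its values were seen: its RNA was 92.8 ± 19.9 CPM in shControl and 92.3 ± 5.42 CPM in shElp3 (log2 -0.01, 95% interval -0.55 to 0.54, adjusted p = 0.995, edgeR). Its footprints were 95.7 ± 29.2 and 90.5 ± 4.82 CPM (log2 -0.08, adjusted p = 0.860, edgeR). Abcg5, Abcg8, Mlxipl and Cyp7a1, targets known from liver and gut, were below the filter.

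Of 9 genes for making or removing oxysterol and desmosterol ligands, 4 were tested, and 2 of them fell in footprints. Among these, Cyp39a1, an oxysterol hydroxylase, fell from 80.6 ± 9.52 to 38.9 ± 11.6 CPM (log2 -1.05, adjusted p = 0.0443, edgeR), a call that ended with upper quartile scaling (-0.97, adjusted p = 0.0519). Ch25h, Cyp27a1 and Cyp7b1, which make or clear side-chain oxysterols, were below the filter. In RNA none of the 4 was called by edgeR (2 at an unadjusted p under 0.05, 1 by DESeq2), and 2 fell with the replicate block.

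Other genes of cholesterol efflux, storage and lysosomal export were mostly not called. Of 17 tested, Stard4, a carrier of sterol within the cell, fell in footprints from 36.9 ± 15.04 to 10.5 ± 1.76 CPM (log2 -1.81, adjusted p = 0.0274, edgeR), and the other 16 were not called. In RNA none of the 17 was called by edgeR (3 at an unadjusted p under 0.05, 1 by DESeq2), and with the replicate block Stard4 fell (log2 -1.58) and Gramd1b and Nceh1 rose (log2 0.62 and 0.63). Among the relatives of Lpcat3 and enzymes of phospholipid remodelling, 8 genes, Lpcat1 fell in footprints from 44.3 ± 1.09 to 19.8 ± 2.04 CPM (log2 -1.16, adjusted p = 0.0138, edgeR). Pla2g4a, cytosolic phospholipase A2, rose from 71.1 ± 17.7 to 142 ± 25.5 CPM (log2 0.99, adjusted p = 0.0451, edgeR). In RNA none of the 8 was called by edgeR (2 at an unadjusted p under 0.05, 2 by DESeq2), and with the replicate block Lpcat1 fell (log2 -0.80) and Pla2g4a and Agpat1 rose (log2 1.09 and 0.64).

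Of 10 substrates and partners of the Mylip ligase and lipoprotein receptors, 8 were tested, and in footprints 1 rose and 1 fell. Lrp1, a large endocytic lipoprotein receptor, rose from 876 ± 78.7 to 1287 ± 34.3 CPM (log2 0.56, adjusted p = 0.0492, edgeR), a call that ended with the replicate block (0.56, adjusted p = 0.0881, edgeR) and without the count filter (0.55, adjusted p = 0.0551). The other 6 were not called in footprints, of which Lrp8 fell with the replicate block (log2 -1.50, adjusted p = 0.0447, edgeR). In RNA 1 of the 8 fell, and with the replicate block 2 fell and 1, Lrp1, rose (log2 0.99).

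The sterol synthesis programme under SREBP2 was lower in shElp3. In footprints 11 of its 18 genes fell, with a median of -1.31, with Srebf2 itself among them (299 ± 11.7 to 116 ± 3.16 CPM, log2 -1.36, adjusted p = 0.0104, edgeR). In RNA 2 of 18 fell, Fdft1 (log2 -1.66) and Hmgcs1 (log2 -1.47, a call that ended with upper quartile scaling, adjusted p = 0.054), with a median of -1.08, and 13 fell with the replicate block. No gene of any list was called for translational efficiency.

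**Figure D4:**
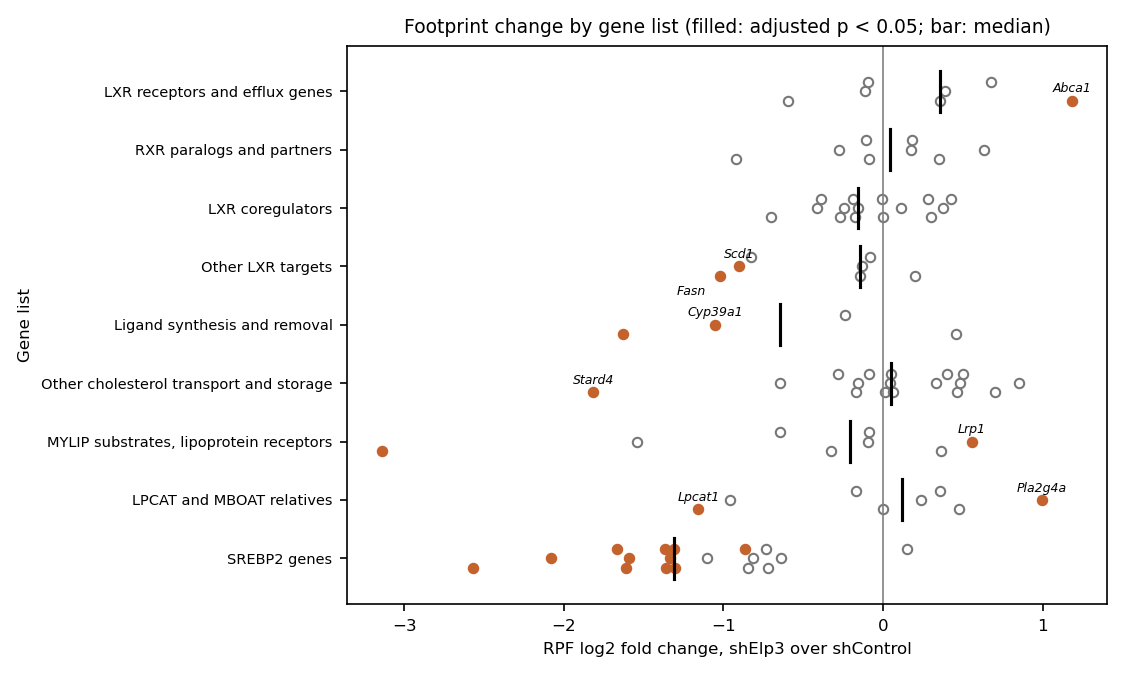
Each point is a tested gene's log2 fold change in RPF (shElp3 over shControl), 1 row per gene list; filled points have an adjusted p under 0.05 and black bars are list medians. The LXR receptors and efflux genes have a median of 0.36 and the SREBP2 genes one of -1.31, while RXR partners and coregulators hold no filled point.

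The footprint calls depended on which cultures were kept. Without shElp3 A, B or C no gene of any list, nor any other gene, was called in footprints; Srebf2 then had adjusted p-values of 0.1, 0.0992 and 0.0724 and log2 fold changes of -1.34, -1.37 and -1.38 (edgeR). Without shControl B or C, 52 and 59 genes were called. Srebf2 was among them (adjusted p = 0.0342 and 0.0272, edgeR). Fasn (0.0643 and 0.0556), Scd1 (0.0694 and 0.0703), Cyp39a1 (0.128 and 0.099), Lrp1 (0.175 and 0.112) and Pla2g4a (0.131 and 0.081) were not. Elp3 itself (0.0694 and 0.0779), Col1a1 (0.0694 and 0.0759) and Pmel (0.104 and 0.0998) were not either. Stard4 was lost without shControl B (0.0766) and Lpcat1 without shControl C (0.055). In RNA, leaving out any library but shControl A left no call, and Fdft1 then had adjusted p-values from 0.0705 to 0.222 (edgeR).

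Across the 12 libraries, centred within RNA and within footprints, Abca1 varied with Mylip (Pearson r = 0.92), with Pltp (0.90) and against Rxra (-0.65). Pltp and Mylip gave 0.82, and Apoe and Lpcat3 gave -0.67. These libraries share 6 cultures and their depths, so the values are a description. The centring also left the difference between shControl and shElp3 in place. Genes that differ between the groups therefore correlate through it, here and among the most alike genes below. Among 8626 genes with enough signal, those most like Abca1 over the 12 libraries were Epg5 (0.98) and Otog (0.98). Those most like Pltp were Sidt2 (0.98) and the receptor Notch3 (0.97), and those most like Mylip were Fam212b (0.96) and the peptide transporter Tap2 (0.95). Rxra was most like Mknk2 (0.96) and Gng12 (0.96), and Nr1h2 most like Zfp398 (0.96) and Epb4.1l1 (0.96). Apoe was most like Asl (0.92) and Tsr1 (0.91), and Lpcat3 most like Mfap3 (0.93) and Vps54 (0.92), so for these members the nearest genes were less close than for Abca1.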

How the data were processed

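The deposited table holds whole-number counts per gene, which the authors made; the submitters' processing notes name bcl2fastq, Bowtie, TopHat2 2.1.1, HTSeq and the build mm10. Annotation, strand setting, counted feature and any ribosomal RNA filter were not given in the sources used here, so reads of overlapping or antisense genes may be mixed. The kit was TruSeq Ribo Profile (Mammalian), per the labels.

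Genes were kept with edgeR's filterByExpr (minimum count 10) within RNA, within footprints, or over both for translational efficiency, and scaled by TMM. Groups were compared with edgeR 4.0.16 (quasi-likelihood, limma 3.58.1, R 4.3.3) within each kind of library, and translational efficiency as the interaction over all libraries; p-values were adjusted by Benjamini-Hochberg over all genes tested. DESeq2 1.42.0, other scalings and filters, a replicate block, letters B and C alone and leaving out each library were alternatives. The members and lists were chosen with earlier results of these data known. Genes outside the members were named where a list's member was called in the comparison, at most the 4 of lowest adjusted p. Srebf1 was added after its values were seen. So were the genes called with the replicate block but not by the main edgeR test (Ppargc1b, Gramd1b, Nceh1, Agpat1, Lrp8, Mitf, Dct, Pdgfrb, Postn). The genes most like a member were the 2 with the highest Pearson r of log2(CPM + 0.5) over the 12 libraries. Values were centred within each kind of library, for genes whose mean log2 CPM was 3 or more in both. Same-letter cultures deviated together in RNA (r = 0.81, 0.42 and 0.58 for A, B and C) and in translational efficiency (0.77, 0.47 and 0.49). In footprints they did not (0.33, -0.11 and 0.21). Across the groups B and C also went with each other in RNA (0.69 and 0.58) and in translational efficiency (0.52 and 0.59). These values therefore do not tell letter B from letter C. The letters come from the labels, which do not say what a letter shares. Positions and promoter windows are RefSeq's on GRCm38.p6; 23204 of 24421 symbols matched its gene table. On simulated counts, the test recovered 1% of the genes given a 2-fold change and 59% of those given a 4-fold change in RNA. In footprints it recovered 41% and 92%, and for translational efficiency 1% and 45%. Each was a single draw, of 12274, 11343 and 11238 genes in turn, in which a small part was changed. The draws held no effect shared by a letter or culture, unlike the RNA libraries here. Some genes of the lists are counted but not reported here by name.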

Additional observations from a re-analysis of the deposited data

How the results depend on the processing

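The number of members called higher in RNA was 0, and it was 2 with DESeq2, 2 with the replicate block, 3 when just letters B and C were used, and 0 to 2 when each library was left out. Nr1h3, which passed the filter only through its higher group, is 1 of the 3 and, without shControl A, 1 of the 2. In footprints it was 1, and it was 2 by DESeq2 and 2 when just letters B and C were used, and 0 to 2 when each library was left out. Estimates near 0 changed sign. Apoe RNA was 0.049 with upper quartile factors and 0.055 with letters B and C only, and ran from -0.20 to 0.19 when a library was left out. Lpcat3 RNA was -0.026 with letters B and C only and -0.048 to 0.33 with a library left out, and Nr1h2 RNA ran from -0.15 to 0.49. Srebf1 RNA was 0.069 with upper quartile factors, 0.016 with the replicate block, 0.0016 without the 20 most abundant genes and -0.18 to 0.11 with a library left out, and its footprints ran from -0.32 to 0.076. For translational efficiency Abca1 was 0.028 with letters B and C only and -0.41 to 0.041 with a library left out. Over all alternatives Nr1h2 ran from -0.18 to 0.58, Apoe from -0.32 to 0.046 and Mylip from -0.22 to 0.0080. Pltp (-0.55 to -0.051), Rxra (-0.54 to -0.12) and Lpcat3 (-0.41 to -0.14) kept their sign over the same alternatives. Pltp, Rxra and Lpcat3 each moved by over 1.5 times without shControl A. The Mylip footprint to RNA ratio in shControl was -0.28 with raw library totals against -0.31. The causes were not tested.

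Over all genes, 140 were called in RNA (27 higher, 113 lower), against 652 with DESeq2, 1499 with the replicate block, 2377 with letters B and C only, 540 without shControl A and 0 without any other library. In footprints 548 were called (201 higher, 347 lower), against 1308 with DESeq2, 2477 with letters B and C only, 2856 without shControl A, 52 and 59 without shControl B or C, and 0 without any shElp3 library. Upper quartile factors gave 277 higher and 270 lower in footprints. For translational efficiency letters B and C only gave 2 calls against 0. Depth limits Nr1h3 and Abcg1, whose counts reach at most 20 in a library.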
